A study of Mus musculus with 12 samples.

Results

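Heme oxygenases, biliverdin reductases, ferritin chains, the transferrin receptor and ferroportin were followed in mouse lungs with and without the transcription factor NRF2. The genes are Hmox1, Hmox2, Blvra, Blvrb, Fth1, Ftl1, Tfrc and Slc40a1, 8 of the 13319 gene symbols on the array, and the members are all probe sets that the platform annotation assigns to them. There were 17 such probe sets. Of these, 11 named 1 of the genes alone, 3 named Ftl1 together with other genes, and 3 were control probe sets of Tfrc that were not tested. A filter on dim signal (a scaled signal of 100 on at least 3 arrays) kept 10 of the 11 single-gene probe sets and all 3 of the shared ones.

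The study measured total lung RNA of CD-1/ICR mice on the Affymetrix Murine Genome 430A chip, with 4 groups of 3 arrays (12 in all). The Nrf2–/– (KO) groups were mechanically ventilated at a high tidal volume of 30 ml/kg for 2 h (HVT) or breathed spontaneously for 2 h (SpV), and the Nrf2+/+ (WT) groups were treated in the same 2 ways. The labels give neither age nor sex, nor whether the arrays of a group came from separate animals, so the p-values reflect only how much these samples varied, and that variation may be technical. The comparisons ask whether NRF2 loss, ventilation, or both together move this pathway.

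Heme oxygenase opens the heme ring and releases iron, carbon monoxide and biliverdin, and biliverdin reductase turns biliverdin into bilirubin, an antioxidant. The freed iron is stored in ferritin, a shell of heavy (Fth1) and light (Ftl1) chains, or leaves the cell through ferroportin (Slc40a1), while transferrin-bound iron enters through the transferrin receptor (Tfrc). Hmox1, Blvrb and both ferritin chains are known NRF2 targets, and ferritin and Tfrc are also controlled after transcription by iron regulatory proteins, which array signals of RNA see only in part.

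Start-site sequences are shown for Ftl1, Fth1 and Blvrb, each with at least 1 probe set called lower in KO lungs, and for Blvra, which had none. Each is the 250 bases before a RefSeq start site on assembly GRCm38.p6, read 5′ to 3′ along the gene. Capitals mark matches on either strand to 3 motifs: TGACNNNGC (the core letters of the antioxidant response element), CCAAT (the NF-Y box) and TGACTCA (the AP-1 site). Where a gene has several start sites, the window with the most G and C was chosen.
Ftl1, chr7:45459887-45460136, minus strand: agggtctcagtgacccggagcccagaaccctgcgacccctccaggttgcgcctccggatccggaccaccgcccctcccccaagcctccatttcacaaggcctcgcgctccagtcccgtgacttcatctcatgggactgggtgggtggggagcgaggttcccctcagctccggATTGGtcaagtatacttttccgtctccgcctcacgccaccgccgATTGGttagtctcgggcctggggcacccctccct
Fth1, chr19:9982396-9982645, plus strand: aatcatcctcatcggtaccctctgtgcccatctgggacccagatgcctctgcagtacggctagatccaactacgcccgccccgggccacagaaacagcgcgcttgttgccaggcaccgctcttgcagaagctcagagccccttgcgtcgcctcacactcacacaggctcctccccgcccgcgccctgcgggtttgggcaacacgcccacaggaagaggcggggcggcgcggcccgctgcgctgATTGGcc
Blvrb, chr7:27447728-27447977, plus strand: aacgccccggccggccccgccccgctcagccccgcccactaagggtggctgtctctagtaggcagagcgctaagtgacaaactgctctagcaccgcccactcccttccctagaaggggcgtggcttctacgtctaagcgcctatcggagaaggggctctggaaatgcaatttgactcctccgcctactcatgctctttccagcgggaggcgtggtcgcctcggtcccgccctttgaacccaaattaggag
Blvra, chr2:127070407-127070656, plus strand: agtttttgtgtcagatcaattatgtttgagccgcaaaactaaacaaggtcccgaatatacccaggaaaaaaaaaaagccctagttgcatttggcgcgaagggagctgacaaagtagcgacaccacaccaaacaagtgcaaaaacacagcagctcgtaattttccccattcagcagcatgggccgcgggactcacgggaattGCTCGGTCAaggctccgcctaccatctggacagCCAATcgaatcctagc
The Ftl1 window held CCAAT at 2 places, both on the opposite strand, from -78 to -74 and from -34 to -30 relative to the start site. The Fth1 window held it once, from -7 to -3, also on the opposite strand. The Blvrb window held none of the 3 motifs. The Blvra window held the antioxidant core as TGACCGAGC on the opposite strand, from -49 to -41, and CCAAT from -16 to -12. Among 32851 RefSeq windows of the same length, 10.2% held TGACNNNGC, 33.8% CCAAT and 4.46% TGACTCA, so such matches are common and describe only the letters of these windows. TGACNNNGC and TGACTCA can overlap, and both start with the letters TGAC.

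The genotype labels were borne out by Nfe2l2, the gene of NRF2. Its normalized signal (scaled and quantile normalized intensity) was 36.2 to 61.3 on the 6 KO arrays, against 2144.3 to 3298.2 on the 6 WT arrays. The arrays differed in brightness before normalization, and the 4 dimmest were KO SpV array 1 and the 3 KO HVT arrays, with trimmed mean signals of 73.9 to 246.6, against 279 to 469.5 on the other 8. KO SpV array 1 stood apart, with a 3′ to 5′ ratio of beta-actin of 8.76, against 1.39 to 3.1 on the others, and the lowest mean correlation with the other arrays, 0.873. At HVT every KO array was dimmer than every WT array and had a higher actin ratio, 2.21 to 3.1 against 1.53 to 1.99, so brightness, this sign of RNA quality and genotype cannot be told apart there. The labels give whole lung for WT SpV array 1 and left lobe for the rest.

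Of the heme-degrading enzymes, inducible heme oxygenase (Hmox1) and biliverdin reductase B (Blvrb) had low signals on ventilated KO lungs, and the constitutive heme oxygenase (Hmox2) and biliverdin reductase A (Blvra) did not separate by genotype. Hmox1 (1448239_at) had normalized signals of 80, 83 and 109 on the KO HVT arrays and 27.5, 320 and 195 on the KO SpV arrays. On the WT arrays it had 473, 325 and 566 at HVT and 166, 270 and 250 at SpV. All 3 ventilated KO values lay below all 6 WT values, and all 3 ventilated WT values lay above the 3 spontaneously breathing WT values. Of the KO SpV arrays, 1 had the lowest Hmox1 signal of all 12 and the other 2 lay within the WT range.

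The log2 difference in Hmox1, KO minus WT, was -2.12 ± 0.56 at HVT (SE, 3 arrays per group, 4.34-fold) with an adjusted p of 0.140 from limma, and -1.42 ± 0.40 averaged over both kinds of breathing (adjusted p = 0.0731). Neither passed the threshold of 0.05 over the 15855 probe sets tested, so no Hmox1 difference was called with all 12 arrays. An exact stratified permutation of the averaged difference, which asks about this probe set alone, gave p = 0.035 (two-sided, unadjusted, 1 of 13 probe sets so tested in each averaged comparison). Without KO SpV array 1 the averaged difference was -0.99 ± 0.19 (adjusted p = 0.0111) and the difference at HVT -2.14 ± 0.26 (adjusted p = 0.00107), while the difference at SpV was 0.15 ± 0.29 (adjusted p = 0.847). Without KO SpV array 2 the averaged difference was -1.71 (adjusted p = 0.02), and the call was made in no other fit that left out 1 array. The 2 bright KO SpV arrays did not lie below the WT SpV arrays, and the difference that remained was that of the ventilated KO arrays, which were all dim.

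Blvrb (1451386_at), which reduces biliverdin and flavins, had signals of 57.7, 9.05 and 13.7 on KO HVT arrays and 25.7, 165 and 155 on KO SpV arrays. On WT arrays it had 151, 189 and 183 at HVT and 138, 241 and 160 at SpV. The 4 dimmest arrays held the 4 lowest Blvrb signals, and there the deposited signals were only 4.6 to 24.3, against 85 to 157 on the 6 WT arrays. Averaged over breathing, Blvrb was lower in KO lungs by a log2 difference of -1.56 ± 0.38 (2.96-fold, SE, 6 arrays per genotype, limma adjusted p = 0.0458). The exact stratified p was 0.025. The difference was -2.32 ± 0.54 at HVT (adjusted p = 0.0924) and -0.81 ± 0.54 at SpV (adjusted p = 0.565). The averaged call was kept in 4 of the 12 fits that left out 1 array, with differences between -1.81 and -1.22. It was lost with a pseudocount of 1 (adjusted p = 0.0536), with no filter (adjusted p = 0.0634) and with the replicate number as a block. With array brightness as a covariate, an alternative chosen after seeing the data, it was -1.08 (adjusted p = 0.0832), and the part of brightness in the result was not tested further.

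Hmox2 (1416399_a_at) had signals of 935, 996 and 733 on KO HVT arrays, 1206, 1084 and 750 on KO SpV arrays, 751, 608 and 670 on WT HVT arrays and 962, 939 and 1041 on WT SpV arrays. The 3 ventilated WT arrays lay below the 3 spontaneously breathing WT arrays, a log2 difference of -0.53 ± 0.19 that was not called (limma adjusted p = 0.511). Averaged over genotypes, the Hmox2 difference, HVT minus SpV, was -0.35 ± 0.14, also not called (limma adjusted p = 0.291). Its exact stratified p was 0.035, unadjusted. Blvra (1428580_at), the reductase that makes bilirubin IX alpha in adult tissue, had signals between 253 and 436 at HVT and between 298 and 453 at SpV in KO lungs. In WT lungs it had 290 to 389 at HVT and 359 to 440 at SpV. Averaged over breathing, its genotype difference was 0.02, with a 95% interval of -0.33 to 0.38. That of Hmox2 was 0.20, with an interval of -0.10 to 0.49. The interval of Blvrb ran from -2.39 to -0.73.

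**Figure D1:**
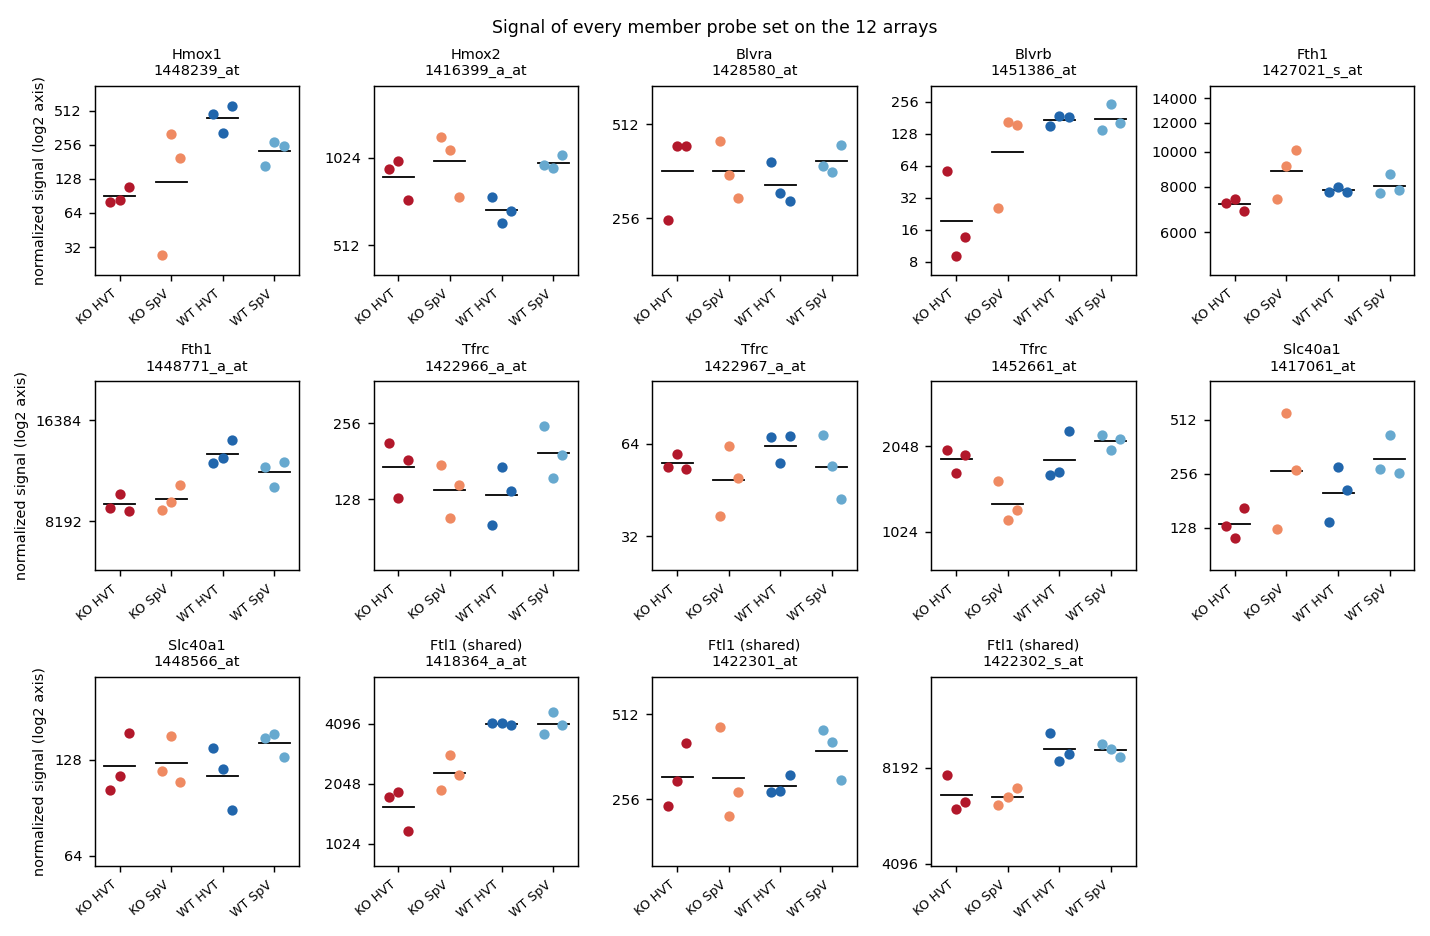
Normalized signal (log2 axis, a separate range for each panel) of every non-control member probe set on the 12 arrays, with 3 arrays per group and a line at each group's geometric mean. KO and WT arrays do not overlap for the shared Ftl1 probe sets 1418364_a_at and 1422302_s_at, and the Hmox1 and Blvrb panels show 1 KO SpV array far below the other 2.

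Probe sets of both ferritin chains were called lower in KO lungs averaged over breathing, where 1.85% of all probe sets were called lower. These were 2 of 3 of the light chain, by 2.14-fold and 1.395-fold, and 1 of 2 of the heavy chain, by 1.30-fold. The heavy chain call and the 1.395-fold light chain call depended on the scaling of the arrays. The 2.14-fold light chain call was lost only without any scaling. The other heavy chain probe set showed no difference, and the third light chain probe set was not called. Ftl1 has no probe set of its own. Probe sets 1418364_a_at and 1422302_s_at are annotated to Ftl1 and to the pseudogene Ftl1-ps2, so their values belong to both together. Probe set 1418364_a_at had signals of 1756, 1862 and 1192 on KO HVT arrays and 1901, 2861 and 2270 on KO SpV arrays. On WT arrays it had 4130, 4144 and 4057 at HVT and 3629, 4716 and 4045 at SpV. All 6 KO values lay below all 6 WT values under both kinds of breathing.

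The averaged log2 difference of 1418364_a_at was -1.10 ± 0.14 (2.14-fold lower in KO, limma adjusted p = 0.00117), and the exact stratified p was 0.005, the smallest that 400 arrangements can give. At HVT the difference was -1.38 ± 0.19 (2.60-fold, adjusted p = 0.00649) and at SpV -0.82 ± 0.19 (adjusted p = 0.0984). The interaction, which asks whether the genotype difference changed with ventilation, was -0.55 ± 0.27 (adjusted p = 0.9998). The averaged call held in all 12 fits that left out 1 array, with differences of -1.18 to -0.99, and in 8 of 9 other fits, the exception being the values without any scaling (-1.78, adjusted p = 0.0544). It was -0.99 with brightness as a covariate (adjusted p = 0.00171). On the 2 bright KO SpV arrays the signals were 2270 and 2861, still below every WT array.

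Probe set 1422302_s_at, with the same annotation, had signals of 7799, 6069 and 6377 on KO HVT arrays and 6266, 6657 and 7075 on KO SpV arrays. On WT arrays it had 10518, 8578 and 9057 at HVT and 9745, 9383 and 8824 at SpV. The genotypes again did not overlap. The averaged difference was smaller, -0.48 ± 0.09 (1.395-fold, limma adjusted p = 0.0120, exact stratified p = 0.005), and nearly equal at HVT (-0.48) and SpV (-0.48). It kept its call in all 12 fits that left out 1 array, and lost it under scaling without quantile normalization (-0.33, adjusted p = 0.146), with equal medians (-0.38, adjusted p = 0.0863) and without any scaling (-1.03, adjusted p = 0.229). The third probe set, 1422301_at, also annotated to Mir692-1, Mir692-2 and Mir692-3, did not follow the other 2. Its signals ran from 224 to 463 on KO arrays and from 273 to 451 on WT arrays, with an averaged difference of -0.10 ± 0.19 (adjusted p = 0.810). Its correlation with 1418364_a_at over the 12 arrays was -0.08, against 0.83 between the other 2.

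The heavy chain Fth1, which carries the ferroxidase activity of ferritin, is measured by probe sets that disagree. With 1448771_a_at the signals were 8976, 9897 and 8791 on KO HVT arrays and 8839, 9352 and 10518 on KO SpV arrays. On WT arrays they were 12223, 12634 and 14256 at HVT and 11860, 10388 and 12258 at SpV. Only 1 KO array, SpV array 3, reached above the lowest WT array. The averaged difference was -0.38 ± 0.08 (1.30-fold lower in KO, limma adjusted p = 0.0215, exact stratified p = 0.01). With 1427021_s_at the 6 KO values ran from 6877 to 10115 and the 6 WT values from 7682 to 8698, and the averaged difference was 0.00 ± 0.08 (adjusted p = 0.998).

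These signals lay near the top of the scale, and the Fth1 call depended on how the arrays were brought to a common range. Scaling each array without quantile normalization gave -0.14 for 1448771_a_at (adjusted p = 0.549), equal medians gave -0.18 (adjusted p = 0.324), and no scaling at all gave -0.84 (adjusted p = 0.290). The call held in 6 of the 12 fits that left out 1 array, with differences of -0.43 to -0.32, and no filter took its adjusted p to 0.0556. The intervals of the 2 Fth1 probe sets, -0.55 to -0.21 and -0.18 to 0.18, do not overlap.

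**Figure D2:**
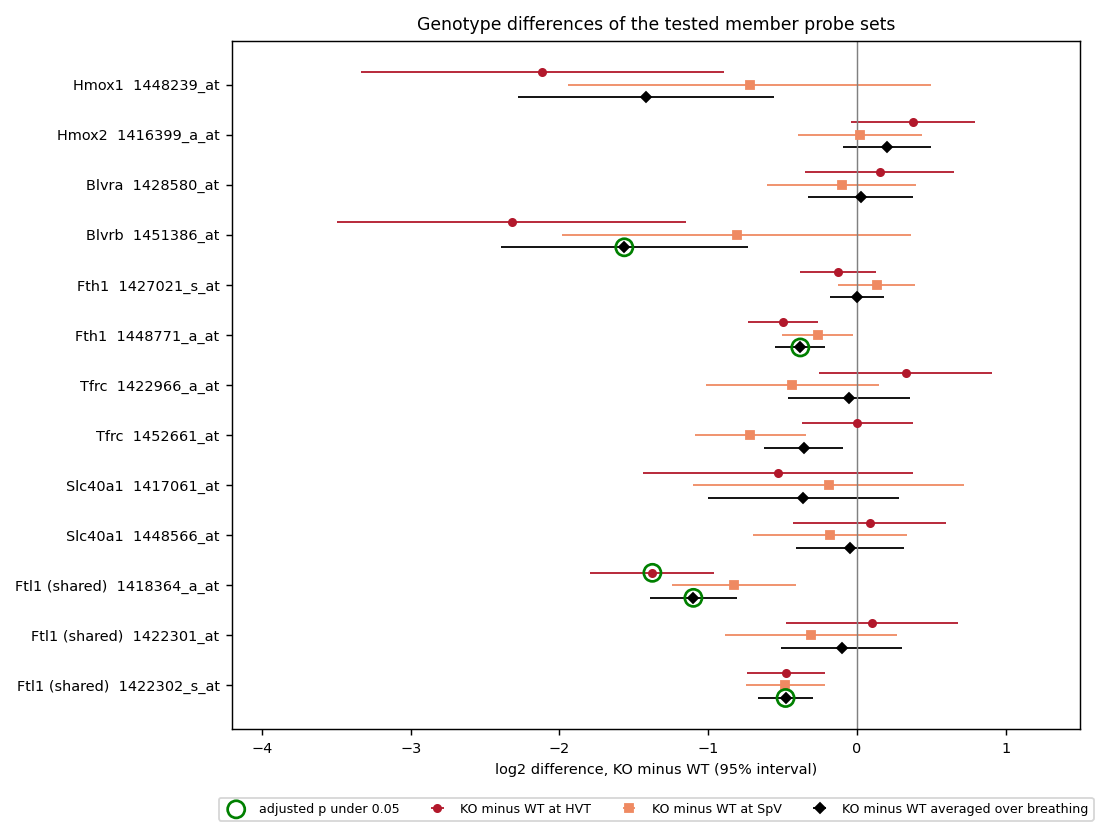
Log2 difference, KO minus WT, of the 13 tested probe sets with its 95% interval, at HVT, at SpV and averaged over both, with green rings at an adjusted p under 0.05. The averaged differences of Blvrb, Fth1 1448771_a_at and the shared Ftl1 probe sets 1418364_a_at and 1422302_s_at are ringed, and of the differences within 1 kind of breathing only that of 1418364_a_at at HVT.

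Iron uptake and export through Tfrc and Slc40a1 gave no call with all 12 arrays. Tfrc 1452661_at, the brightest Tfrc probe set, had signals of 1982, 1654 and 1903 on KO HVT arrays and 1544, 1128 and 1224 on KO SpV arrays. On WT arrays it had 1620, 1662 and 2308 at HVT and 2238, 1986 and 2167 at SpV. The KO SpV arrays lay below all other arrays, whereas KO HVT and WT HVT arrays overlapped. The difference, KO minus WT, was -0.72 ± 0.17 at SpV (limma adjusted p = 0.107) and 0.00 ± 0.17 at HVT (adjusted p = 0.998). The interaction was 0.72 ± 0.24 (adjusted p = 0.982), so the genotype differences at SpV and HVT were not shown to differ. Without KO SpV array 1 the difference at SpV was -0.85 ± 0.17 (adjusted p = 0.0242), and with brightness as a covariate -0.78 (adjusted p = 0.0295). The KO SpV arrays were the 2 brightest of the study and the dimmest, and the part of brightness in the Tfrc differences was not tested.

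The other Tfrc probe sets were dim. Probe set 1422966_a_at had 130 to 214 on KO HVT arrays, 108 to 175 on KO SpV arrays, 101 to 171 on WT HVT arrays and 155 to 249 on WT SpV arrays, with an averaged genotype difference of -0.05 ± 0.19 (limma adjusted p = 0.912). Probe set 1422967_a_at did not pass the filter, with 37.2 to 62.9 on KO arrays and 42.4 to 68.1 on WT arrays. The control probe sets, which read the 3′ end, the middle and the 5′ end of the transcript, were at most 90.4 on KO arrays and 117 on WT arrays.

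Ferroportin (Slc40a1), the iron exporter, had 2 tested probe sets that disagreed in spread. With 1417061_at the signals were 130, 112 and 164 on KO HVT arrays and 126, 557 and 268 on KO SpV arrays. On WT arrays they were 138, 279 and 209 at HVT and 273, 418 and 258 at SpV. The averaged difference, HVT minus SpV, was -0.75 ± 0.30 (limma adjusted p = 0.298, exact stratified p = 0.055), and the averaged genotype difference -0.36 ± 0.30 (adjusted p = 0.547). With 1448566_at all 12 signals lay between 89.2 and 156, and the same differences were -0.17 ± 0.17 and -0.05 ± 0.17.

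Counted over the 10 tested single-gene probe sets, genotype averaged over breathing gave 2 calls, both lower in KO (Blvrb and Fth1 1448771_a_at), where 1.85% of all 15855 probe sets were called lower and 3.27% called in either direction. The median log2 difference over the 10 was -0.21, against -0.01 over all probe sets tested, 7 of the 10 were negative, and 4 had an unadjusted p under 0.05 (19.8% of all). None of the 10 separated all KO from all WT arrays, as 1.34% of all probe sets did with KO lower and as 2 of the 3 shared Ftl1 probe sets did. At HVT, 0 of the 10 were called (0.656% of all probe sets) and 3 had an unadjusted p under 0.05 (12.5% of all). There the groups did not overlap for 4 of the 10, Hmox1, Blvrb and both Fth1 probe sets, all lower in KO, against 13.2% of all probe sets in that direction. At SpV, 0 of 10 were called (0.505% of all), 2 had an unadjusted p under 0.05 (12.9% of all) and 1, Tfrc 1452661_at, had groups that did not overlap (9.29% of all in that direction). Of the 3 shared Ftl1 probe sets, 2 were called lower averaged over breathing and 1 at HVT.

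Ventilation gave 0 calls among the 10 in either genotype by limma, in the 2 genotypes averaged, or in the interaction. The calls over all probe sets were 0% in KO, 0.0252% in WT, 0.126% averaged and 0% for the interaction, and 4, 1, 2 and 1 of the 10 had an unadjusted p under 0.05, against 11.1%, 7.28%, 13.2% and 5.04% of all. In WT lungs the Hmox1 difference, HVT minus SpV, was 0.94 ± 0.56 (1.91-fold, limma adjusted p = 0.815), and in KO lungs -0.46 ± 0.56 (adjusted p = 0.802). Neither difference was called, and the 95% interval in WT lungs was -0.28 to 2.16. The ventilated and spontaneously breathing arrays did not overlap for 2 of the 10 in WT lungs, Hmox1 and Hmox2, against 16.4% of all probe sets. In KO lungs they did not overlap for 2 of the 10, Fth1 1427021_s_at and Tfrc 1452661_at, against 15% of all.

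Leaving out KO SpV array 1 changed this more than any other single omission did. Then 5 of the 10 were called in ventilated against spontaneously breathing KO lungs, where 6.43% of all probe sets were. Hmox1 fell by 1.34 ± 0.29 on the log2 scale (limma adjusted p = 0.0214), Blvrb fell by 2.22 ± 0.40 (adjusted p = 0.0120), Fth1 1427021_s_at fell by 0.40 ± 0.09 (adjusted p = 0.0310) and Slc40a1 1417061_at fell by 1.44 ± 0.34 (adjusted p = 0.0306). Tfrc 1452661_at rose by 0.64 ± 0.17 (adjusted p = 0.0426), and the shared Ftl1 probe set 1418364_a_at fell by 0.69 ± 0.19 (adjusted p = 0.0494).

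In that fit the ventilation response of Hmox1 differed between the genotypes, with an interaction of -2.29 ± 0.39 (limma adjusted p = 0.0290), and 0.654% of all probe sets were called. The genotype calls of the 10 were then 3 at HVT (4.74% of all), 1 at SpV (1.94% of all) and 4 averaged (5.61% of all). The KO SpV group then had 2 arrays, the brightest of the study, set against the 3 dim KO HVT arrays, so ventilation and brightness cannot be told apart within KO in that fit.

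**Figure D3:**
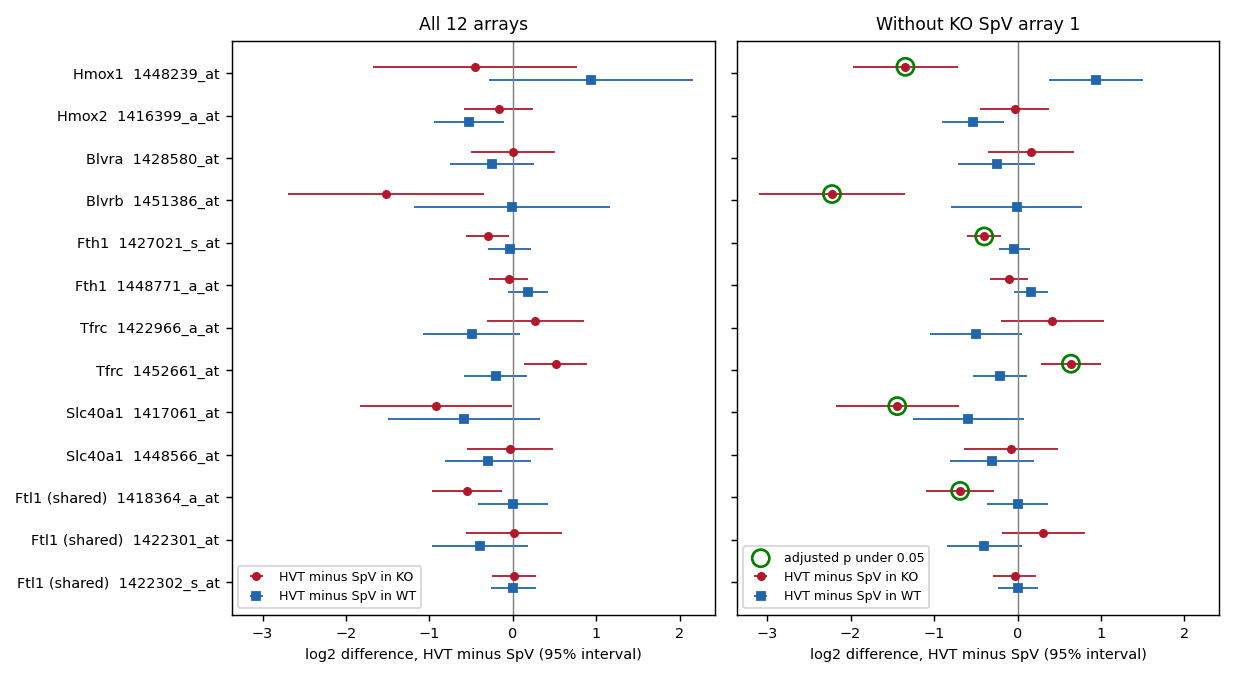
Log2 difference, HVT minus SpV, in KO and in WT lungs with its 95% interval, for all 12 arrays (left) and without KO SpV array 1 (right), with green rings at an adjusted p under 0.05. No difference is ringed on the left, and 6 KO differences are ringed on the right, 5 of them negative.

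**Figure D4:**
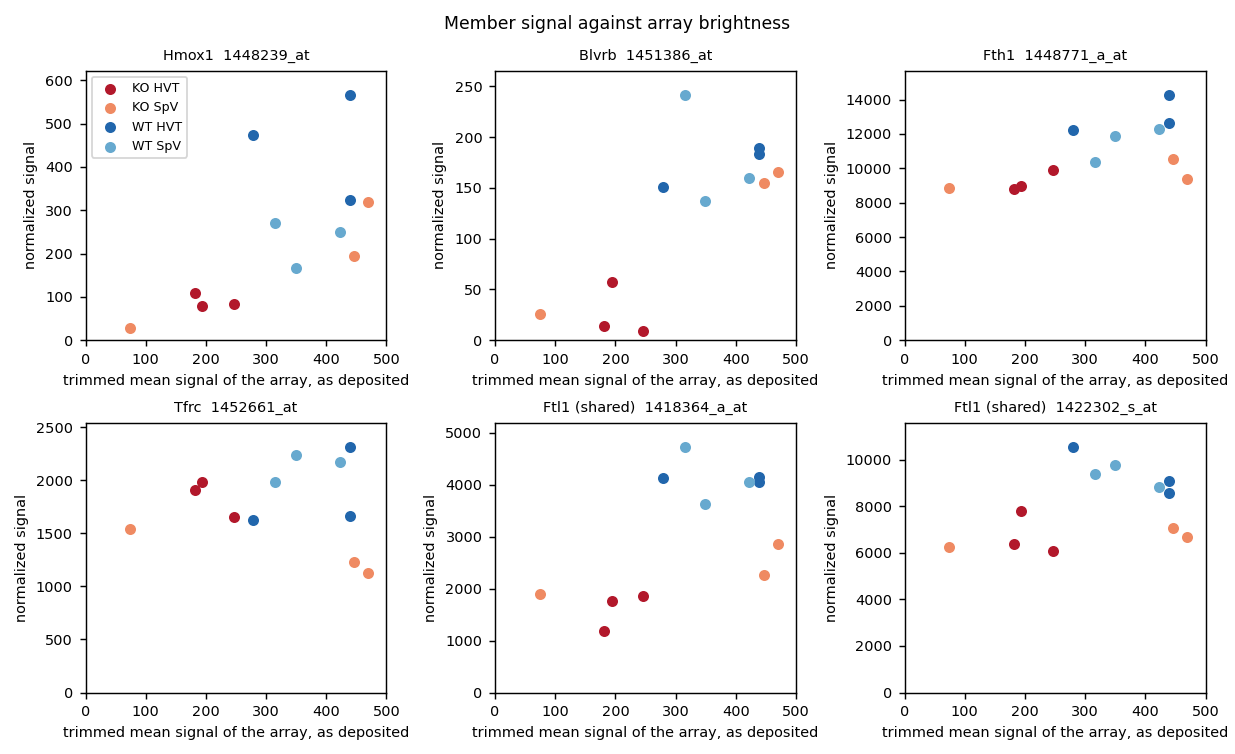
Normalized signal of 6 probe sets against the array's trimmed mean signal as deposited, before any scaling, with 1 point per array. For Hmox1, Blvrb and Ftl1 1418364_a_at the 4 dimmest arrays, all KO, lie below the other 8, and for Ftl1 1418364_a_at the 2 bright KO arrays also stay below every WT array.

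Array brightness moved with several members. Signals on the 4 dimmest arrays were all below those on the other 8 for Hmox1 (27.5 to 109, against 166 to 566), Blvrb (9.05 to 57.7, against 138 to 241), Fth1 1427021_s_at (6877 to 7418, against 7682 to 10115) and Ftl1 1418364_a_at (1192 to 1901, against 2270 to 4716). On the 2 bright KO SpV arrays, Hmox1 (195 and 320) and Blvrb (155 and 165) lay within the WT range, and both called Ftl1 probe sets lay below it. Fth1 1448771_a_at was at 9352 and 10518 there, against 10388 to 14256 on WT arrays. No KO HVT array was bright, so the part of brightness in the differences at HVT cannot be told apart from that of genotype.

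**Figure D5:**
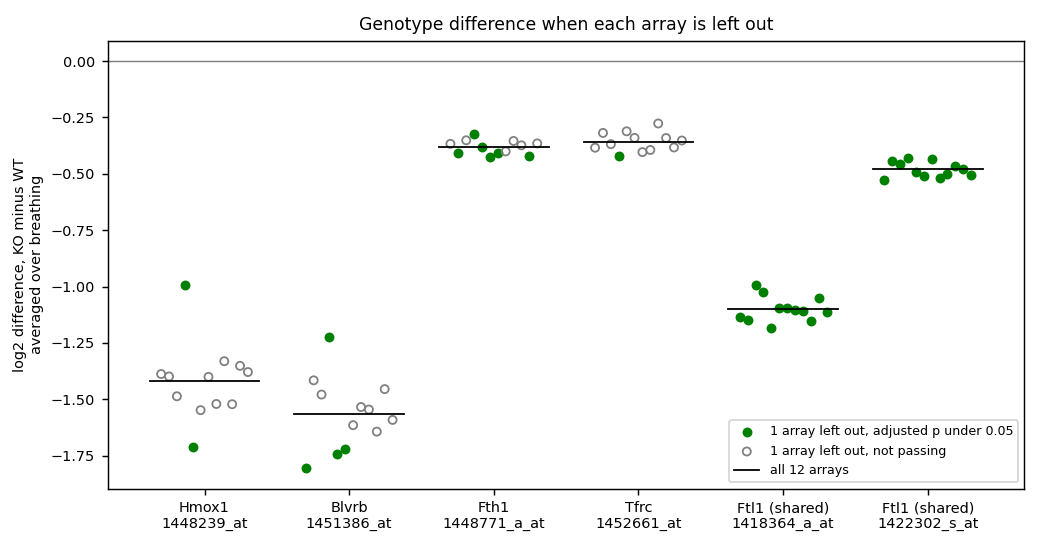
Log2 difference, KO minus WT, averaged over breathing for 6 probe sets with all 12 arrays (line) and with each array left out in turn (points, filled green at an adjusted p under 0.05). The points of both shared Ftl1 probe sets are all filled, and those of Blvrb and Fth1 1448771_a_at are filled in 4 and 6 of 12 fits.

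The members varied together in part. Over the 12 arrays Hmox1 signals on the log2 scale correlated with Blvrb (r = 0.80), Fth1 1448771_a_at (r = 0.76) and Ftl1 1418364_a_at (r = 0.76), and Blvrb with Ftl1 1418364_a_at (r = 0.87). Hmox1 and Hmox2 had r = -0.56. These values describe arrays that share genotype, ventilation and brightness. The genes most like Hmox1 by the same measure were Timp3 (r = 0.96), Senp2 (r = 0.94) and Mob4 (r = 0.93). Hmox2 was most like Fgd2 (r = 0.85), Blvra most like Septin11 (r = 0.87), Tfrc 1452661_at most like Tmem245 (r = 0.87) and Slc40a1 1417061_at most like Sox13 (r = 0.93). Those most like Blvrb were Rab3d (r = 0.95), Inmt (r = 0.94) and Tgoln1 (r = 0.94), and those most like Fth1 1448771_a_at were Zfp24 (r = 0.95), Slc25a51 (r = 0.92) and Ces1g (r = 0.91).

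A list of known NRF2 targets outside the pathway had most of its tested genes called lower in KO lungs averaged over breathing. Of 10 listed, 9 were tested, all 9 were lower in KO averaged over breathing, and 7 were called, with a median log2 difference of -1.17. Over all probe sets tested, 1.85% were called lower there, and the median was -0.005. The list was chosen with earlier results of these data known. Aldehyde oxidase (Aox1), with the smallest p of the list, had 346 to 427 on KO HVT arrays, 333 to 405 on KO SpV arrays, 1360 to 1818 on WT HVT arrays and 1393 to 1565 on WT SpV arrays, a difference of -1.96 ± 0.11 (limma adjusted p = 3.75e-06). Sulfiredoxin (Srxn1), which repairs peroxiredoxins, had 155 to 184 on KO HVT arrays and 149 to 221 on KO SpV arrays, against 606 to 966 on WT HVT arrays and 315 to 389 on WT SpV arrays. The glutathione transferases Gsta3 and Gstm1 were lower by -1.90 ± 0.18 and -1.81 ± 0.12 (limma adjusted p = 0.000145 and 1.00e-05). For Aox1, Srxn1, Gsta3 and Gstm1 the averaged call was kept whichever array was left out. The lists have unlike numbers of genes and signal levels, and no test compared them.

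Among regulators of Hmox1, 11 of 12 were tested, and the small MAF protein Maff, a partner of NRF2 and of the repressor BACH1, rose with ventilation in WT lungs. Maff had signals of 518, 585 and 759 on KO HVT arrays, 391, 447 and 447 on KO SpV arrays, 1337, 1070 and 1174 on WT HVT arrays and 139, 232 and 268 on WT SpV arrays. Its difference, HVT minus SpV in WT, was 2.44 ± 0.23 (limma adjusted p = 0.00178), the 1 call among the 11 there (0.0252% of all probe sets). In KO the difference was 0.50 (adjusted p = 0.431), and averaged over genotypes it was 1.47 ± 0.16 (adjusted p = 0.0104), also called (0.126% of all). The interaction was -1.94 ± 0.32 (adjusted p = 0.385), so the rise was not shown to differ between the genotypes. Averaged over breathing, 10 of the 11 regulators, Nfe2l2 among them, had lower signals in KO, as did 8025 of all 15855 probe sets. Only Nfe2l2 itself was called. The regulators with lower signals were 10 of 11 at HVT and 7 of 11 at SpV, against 7925 and 8306 of all probe sets.

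Among other genes of heme and iron handling, Slc48a1, Ltf, Hamp and Cp were called averaged over breathing, where 3.27% of all probe sets were called. Of 8 tested genes of heme and hemoglobin uptake and transport, 1 was called lower in KO. This was Slc48a1, a heme transporter of lysosomes, with 514, 618 and 549 on KO HVT arrays, 944, 867 and 740 on KO SpV arrays, 950, 1040 and 958 on WT HVT arrays and 1163, 1180 and 912 on WT SpV arrays. Its difference was -0.80 ± 0.16 at HVT (limma adjusted p = 0.0449) and -0.57 ± 0.11 averaged (adjusted p = 0.0187). The call at HVT was kept in 1 of the 12 fits that left out 1 array, and the averaged call in 9.

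Averaged over breathing, 225 of all 15855 probe sets were called higher in KO. Of 10 tested genes of iron uptake and reduction, 1 was called higher, lactoferrin (Ltf), a secreted iron-binding protein of airway glands and neutrophils. It had 4090, 1798 and 1396 on KO HVT arrays, 971, 1607 and 2165 on KO SpV arrays, 218, 240 and 504 on WT HVT arrays and 429, 339 and 312 on WT SpV arrays, an averaged difference of 2.41 ± 0.29 (limma adjusted p = 0.00103). Of the 10 tested neutrophil markers, a list that holds Ltf itself, 1 was called higher and 6 had lower signals in KO, and the summed signal was 4563 to 6959 on KO HVT arrays, 7095 to 25589 on KO SpV arrays, 5141 to 9622 on WT HVT arrays and 6464 to 9014 on WT SpV arrays. The part of neutrophil number in the Ltf difference was not tested.

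Of 10 tested genes of iron sensing, export and ferritin handling, 2 were called higher in KO and 0 lower averaged over breathing. There, 225 of all 15855 probe sets were called higher and 293 lower. Hepcidin (Hamp), the peptide that closes ferroportin, had 2638, 3048 and 3537 on KO HVT arrays, 2059, 1619 and 1679 on KO SpV arrays, 1100, 712 and 1478 on WT HVT arrays and 1166, 928 and 764 on WT SpV arrays. All 6 KO values lay above all 6 WT values, with an averaged difference of 1.22 ± 0.17 (limma adjusted p = 0.00317). The genotypes did not overlap, in either direction, for 395 of all 15855 probe sets. Ceruloplasmin (Cp), a ferroxidase that works with ferroportin, had 5059 to 9498 on KO arrays and 3154 to 4471 on WT arrays, a difference of 0.89 ± 0.15 (adjusted p = 0.00851). Both calls, and that of Ltf, held whichever array was left out. Without any scaling, where the median of all probe sets was -0.604, the averaged differences were 0.52 for Hamp, 0.31 for Cp and 1.71 for Ltf (adjusted p = 0.417, 0.542 and 0.0890).

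Heart muscle markers moved with Hamp, which heart muscle also expresses. All 8 listed markers had higher signals in KO averaged over breathing and 7 were called, where 3.27% of all probe sets were called in either direction. Their summed signal was 52852 to 63152 on KO HVT arrays, 43339 to 53462 on KO SpV arrays, 25703 to 40741 on WT HVT arrays and 26754 to 37057 on WT SpV arrays. The part of heart tissue in the Hamp difference was not tested.

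Heme synthesis (8 tested of 9) and mitochondrial iron and iron-sulfur cluster genes (6 tested of 9) had no genotype calls by limma. The gene with the smallest p in each was Alas2, the first enzyme of heme synthesis in red cell precursors, and Nfs1, the cysteine desulfurase of iron-sulfur clusters. Alas2 had 778, 847 and 810 on KO HVT arrays, 529, 2764 and 1105 on KO SpV arrays, 901, 1189 and 858 on WT HVT arrays and 2551, 2520 and 2799 on WT SpV arrays, an averaged genotype difference of -0.70 ± 0.29 (adjusted p = 0.211). Nfs1 differed by -0.40 ± 0.12 (adjusted p = 0.0964). The 3 tested red cell markers, of 10 listed and with Alas2 among them, summed to 1265 to 1631 on KO HVT arrays, 1350 to 3987 on KO SpV arrays, 1246 to 1854 on WT HVT arrays and 3269 to 3864 on WT SpV arrays.

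Markers of the alveolar wall were not spread evenly over the KO arrays. The endothelial and type I sums were below every WT array on the 4 dimmest arrays, all KO. On the 2 bright KO SpV arrays they lay within the range of the WT arrays of both kinds of breathing. Against the WT SpV arrays alone, both bright endothelial sums lay lower, as did the type I sum of 32240. Averaged over breathing, endothelial markers had lower signals in KO for 9 of 10, of which 4 were called, where 1.85% of all probe sets were called lower. Their summed signals were 11298 to 12921 on KO HVT arrays, 10930 to 25883 on KO SpV arrays, 19951 to 33138 on WT HVT arrays and 28601 to 35948 on WT SpV arrays. On the bright KO SpV arrays the endothelial sums were 25883 and 21279. Type I cell markers had lower signals in KO for all 6 tested, of which 2 were called (1.85% of all probe sets in that direction). Their summed signals were 14559 to 19654 on KO HVT arrays, 14735, 35998 and 32240 on KO SpV arrays, 27786 to 40175 on WT HVT arrays and 33656 to 44432 on WT SpV arrays. Type II cell markers had 0 calls among 7 by limma, with a median difference of -0.10, and summed to 69194 to 77274 on KO HVT arrays, 63472 to 88446 on KO SpV arrays, 72825 to 82649 on WT HVT arrays and 81043 to 92677 on WT SpV arrays. Lung macrophage markers, which mark cells rich in Hmox1 and ferritin, had 0 calls among 10. Averaged over breathing, 8 were higher in KO, as were 7830 of all 15855 probe sets. The macrophage sums were 4554, 9787 and 4735 on KO HVT arrays and 3138, 9764 and 6681 on KO SpV arrays. On WT arrays they were 5378 to 5472 at HVT and 5411 to 6114 at SpV. The sums of KO HVT arrays 1 and 3 and KO SpV array 1 lay below every WT sum, and the other KO sums above. In whole lung RNA, fewer cells of a type and less RNA per cell cannot be told apart, and the part of cell makeup in the Hmox1, Blvrb and ferritin differences was not tested.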

How the data were processed

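Signals of 22690 probe sets were read from the table deposited for the 12 arrays. They are linear intensity values, which the submitters' processing notes credit to GCOS 1.4 and the design text describes as normalized to an average intensity of 500 by the authors. The deposited values do not show this, so each array was scaled to a mean of 500, trimmed by 2% at each end, and the arrays were quantile normalized. The number of arrays limits the precision. A pseudocount of 16 was added before log2, which makes fold changes of dim probe sets smaller. Probe sets with a scaled signal of 100 on at least 3 arrays were kept (15855), without the 64 controls. The 4 group means were fitted with limma 3.58.1 in R 4.3.3 (lmFit, eBayes with an intensity trend, 8 residual and 4.38 prior degrees of freedom), two-sided, with Benjamini-Hochberg adjustment over all 15855. Exact permutation p-values are at least 0.1 for 2 groups of 3 and at least 0.005 when stratified by breathing or genotype. The fit was tested on simulated arrays with independent noise and no differences in brightness or RNA quality, so that test does not bear on either.

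The annotation names 1 gene for 20393 probe sets, several for 691 and none here for 1606. The members and gene lists were chosen with earlier results of these data known. Every member probe set is named. From each pathway list up to 4 called genes are named, or the 1 with the smallest p in the averaged genotype comparison, and the 3 genes most like a member by correlation. Start-site sequences come from RefSeq (GRCm38.p6), which was matched by symbol for 6 of the 8 genes. Alternatives covered scaling, pseudocount, filter, array weights, covariates, the replicate number and each array left out.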

Additional observations from a re-analysis of the deposited data

How the results depend on the processing

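Counts of calls below are over the 10 tested single-gene probe sets. For KO minus WT averaged over breathing (2 calls), the count was 1 with scaling but no quantile normalization, 1 with equal medians, 1 with a pseudocount of 1, 0 with no filter, 4 with array weights, 4 with the actin ratio as a covariate, 1 with array brightness as a covariate, and 0 to 4 when each array was left out. For KO minus WT at HVT (0 calls), it was 2 with no scaling, 3 with array weights, 1 with the actin ratio, 3 with only the groups compared, and 0 to 3 with an array left out. For KO minus WT at SpV (0 calls), it was 2 with array weights, 1 with the actin ratio, 1 with brightness, and 0 to 1 with an array left out. For HVT minus SpV in KO (0 calls), it was 5 with array weights and 0 to 5 with an array left out, for the interaction (0 calls) 2 and 0 to 1, and for HVT minus SpV averaged (0 calls) 3 and 0 to 2, with 1 under the actin ratio. Each highest count with an array left out came without KO SpV array 1. Calls over all 15855 probe sets changed too. With array weights they were 1707 for KO minus WT averaged, 588 at HVT, 1503 at SpV, 2086 for HVT minus SpV in KO, 190 for the interaction and 1735 for HVT minus SpV averaged. With the actin ratio they were 916, 213 and 583 for KO minus WT averaged, at HVT and at SpV, and 756 for HVT minus SpV averaged. At HVT they were 267 with only the groups compared and 28 with no scaling, and with brightness 627 averaged and 349 at SpV. Among the 10, HVT minus SpV in WT had 0 calls in every fit. The causes of the changes in these counts were not tested. With no filter, both the number of probe sets adjusted over and the standard errors changed.

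With the replicate number as a block, KO minus WT averaged over breathing had 1 call, since Blvrb was at an adjusted p of 0.0534, and no other member count changed. The numbers were not shown to pair the arrays. The correlation of deviations from the group means had a median of 0.059 over the 18 same-number pairs (range -0.181 to 0.381, with 6 over 0.1). Over the 36 different-number pairs the median was -0.006 (range -0.384 to 0.283, with 7 over 0.1).

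The alternative fits were also counted one by one over the 13 tested probe sets, the 3 shared Ftl1 probe sets included. Of these 2012 fits, 1932 stayed on their side of the threshold, 27 lost a call and 53 gained one. None of the called values changed sign, and 135 uncalled values had the opposite sign. Over all probe sets the calls for KO minus WT averaged were 518, with 206 to 875 when an array was left out and up to 1707 under the other settings, and for HVT minus SpV in KO 0, with 1003 without KO SpV array 1 and up to 2086 under the other settings. Without any scaling the median of all probe sets was shifted by -0.766 at HVT, -0.46 at SpV and -0.604 averaged for KO minus WT, and by -0.274 for HVT minus SpV in KO, so differences from that fit are read relative to these shifts. There 6 probe sets were called higher and 122 lower for KO minus WT averaged, against 225 and 293 with scaling and quantile normalization. Signals of Blvrb on the dimmest arrays lie at the bottom of the range and those of ferritin near its top, which limits both.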
